A study of Mus musculus with 96 samples.

Results

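The mouse mitochondrial genome contributes 37 genes to the expression table, and all 37 were taken, by the rule that the gene symbol starts with mt-, out of 37945 genes in all. They are 13 messenger RNAs, 2 ribosomal RNAs (mt-Rnr1 and mt-Rnr2) and 22 transfer RNAs. The RNA came from mineralizing osteoblast cultures of 42 strains of the Collaborative Cross, a panel of recombinant inbred mouse strains bred from several founder strains. Skull cap cells of pups aged 3 to 5 days reached the laboratory as heads shipped overnight on ice, were grown for 48 h, and were then differentiated for 10 days with ascorbic acid plus beta-glycerol phosphate. All cultures were treated alike, and the strain is the only difference the labels name. The 96 samples make 95 independent libraries, because a CC030 sample was sequenced 2 times and entered as the mean of its runs. There were 2 libraries for 31 strains, 3 for 2, 4 for 6 and 1 for CC011, CC024 and CC035. Whether the libraries of 1 strain represent different pups or wells is not stated, so p-values measure only the spread between these samples, which may be technical.

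Mitochondrial DNA is a small circular genome kept in many copies per cell. Its 13 proteins are subunits of the respiratory chain: 7 belong to complex I, which oxidises NADH, 1 to complex III, 3 to complex IV, which reduces oxygen, and 2 to the ATP synthase, complex V. Both strands, named heavy and light, are transcribed by the polymerase Polrmt into long RNAs that carry many genes, and excision of the tRNAs that lie between them releases most mRNAs and rRNAs. The mRNA of mt-Nd6 and 8 of the 22 tRNAs are named as light-strand genes, and all others as heavy-strand genes. Mitochondrial DNA passes from the mother, so an inbred strain of the panel carries that of 1 founder; the sources used here do not name it. Nuclear chromosomes hold old copies of mitochondrial DNA, called nuclear mitochondrial segments, and some are annotated as pseudogenes.

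Short stretches of sequence show how far reads of a mitochondrial gene can be told apart from those of such a copy, or of a neighbour. They come from the GENCODE M21 transcripts of the mouse build GRCm38. Because the deposited values were made on another build (mm9), no coordinates are given. The gene mt-Co2 and its copy Gm13341, an unprocessed pseudogene on chromosome 2, share 95.9% of 684 aligned bases. In the 90-base window with the most differences (positions 445 to 534 of mt-Co2), capitals mark the 7 bases that differ:
mt-Co2: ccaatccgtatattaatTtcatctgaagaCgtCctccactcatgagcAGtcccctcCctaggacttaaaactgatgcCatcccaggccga
Gm13341: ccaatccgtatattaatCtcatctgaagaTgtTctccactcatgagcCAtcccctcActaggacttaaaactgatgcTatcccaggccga

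The gene mt-Co1 and its chromosome 2 copy Gm13340 share 97.6% of 1545 aligned bases. The window with the most differences, positions 445 to 534, holds 5 differing bases, in capitals:
mt-Co1: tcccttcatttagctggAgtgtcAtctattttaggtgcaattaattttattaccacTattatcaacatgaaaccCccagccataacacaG
Gm13340: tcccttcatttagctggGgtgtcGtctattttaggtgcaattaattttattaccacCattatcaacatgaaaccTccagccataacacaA

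The copy of mt-Nd4l on chromosome 1, Gm10222, is identical over its whole length of 294 bases. In the last 63 bases of mt-Nd4l, capitals mark the 3 that Gm10222 lacks, so reads inside the shared part cannot be told apart:
mt-Nd4l: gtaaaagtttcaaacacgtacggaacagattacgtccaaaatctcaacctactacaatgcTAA

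Neighbours on the mitochondrial genome also overlap. The last 43 bases of mt-Atp8 are the first of mt-Atp6 on the same strand (capitals), and the last 3 bases of the light-strand tRNA mt-Ts1 (capitals) lie across from the end of mt-Co1 on the other strand:
mt-Atp8: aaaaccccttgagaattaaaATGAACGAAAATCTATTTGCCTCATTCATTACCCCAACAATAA
mt-Ts1: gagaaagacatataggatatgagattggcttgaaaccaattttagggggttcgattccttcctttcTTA
Likewise mt-Nd4 and mt-Nd4l share 7 bases on the same strand, and mt-Nd5 and mt-Nd6 share 14 on opposite strands. The kit keeps strand, but the sources used here do not say whether counting used it, so reads of these pairs are uncertain where they overlap.

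Bone markers were measured in the cultures, at levels that differed widely between strains. Col1a2, the alpha-2 chain of type I collagen, had a median of 6984 scaled TPM (3323 to 11774 over the 95 libraries). Alpl, an enzyme that frees phosphate for mineral, had a median of 172.97 (19.8 to 396). Some markers, named after their values were seen, were low in CC071: Bglap2, an osteocalcin gene, had a mean of 0.710 there against a median of 762 over libraries, and Bglap, also osteocalcin, 58.1 against 791. Phospho1, a phosphatase of mineralization, had 3.55 against 37.3, and Phex 2.43 against 17.0. The other osteoblast markers are not given for CC071, so the list as a whole cannot be judged there. CC071 was also the strain lowest in mt-Nd4l and mt-Rnr2 (below), and the part of these markers in that was not tested. All 13 osteoblast markers and all 8 macrophage markers were measured, and the summed macrophage level ran from 39.2 scaled TPM in CC005 to 3625 in the highest strain, so a bulk level here mixes cell types. Fewer cells of a type and less RNA per cell cannot be told apart in bulk samples. Of the skeletal muscle, adipocyte, erythroid and endothelial lists, 3 of 6, 3 of 6, 3 of 5 and 1 of 3 genes had a median under 0.05 scaled TPM, among them Ckm and Ucp1. The estimated depth was 20.7 to 39.5 Mreads per library (median 27.5), with 1 CC075 library at 82.6, where 1 Mread is 1000000 reads. Scaled TPM is the deposited TPM, a length-corrected share of the RNA, divided by 1 scaling factor per library.

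Summed over its 13 mRNAs, the mitochondrial genome supplied 1.26% of all TPM in the median library (0.842% to 2.18%). The 2 rRNAs supplied 0.661% (0.404% to 1.06%) and the 22 tRNAs 0.0423%. The highest strain means of the summed mRNAs were those of CC044 (1.92% ± 0.365, SD, n = 2), CC051 (1.83% ± 0.135, n = 2) and CC059 (1.60% ± 0.111, n = 3). The lowest were those of CC005 (0.945%, with both libraries at 0.944% and 0.945%), CC040 (0.997% ± 0.12, n = 2) and CC019 (1.03% ± 0.145, n = 2). No library of the 3 high strains fell below 1.48%, and none of the 3 low strains rose above 1.13%. The strains were picked as the extremes of this same sum, so a gap between them follows in part from the choice. The libraries of CC044 (1.66% and 2.18%) overlapped those of CC051 (1.74% and 1.93%). Those of CC051 lay above those of CC059 (1.48% to 1.70%), with no overlap. Among the low strains, CC040 and CC019 overlapped each other and the level of CC005. The ratio of the highest to the lowest strain mean was 2.03. It was 1.62 when the sum was set against the TPM of protein-coding genes alone, and the order changed with that denominator, to CC051 (5.10%) as the highest and CC028 (3.15%) as the lowest strain. Summed macrophage markers stood at 362, 329 and 106 scaled TPM in CC044, CC051 and CC059 and at 39.2, 1356 and 939 in CC005, CC040 and CC019, with a median of 346 over strains; their part in the sums was not tested.

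**Figure D1:**
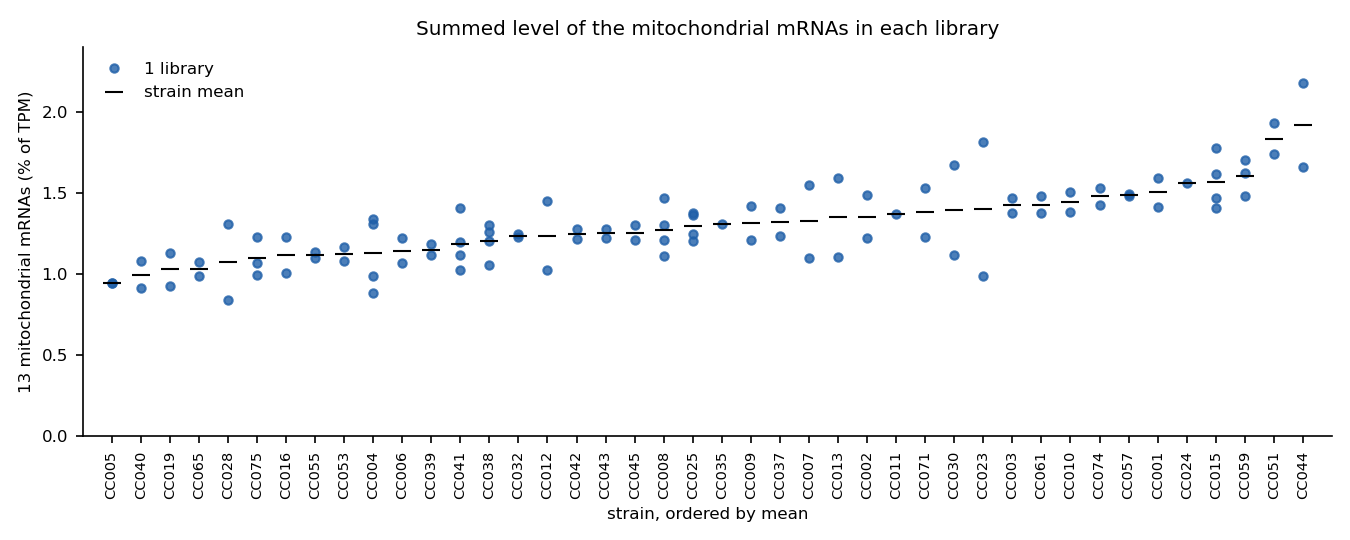
Summed level of the 13 mitochondrial mRNAs (percent of the TPM of a library, y axis) in 42 strains ordered by their mean. Each blue point is 1 library and each black bar a strain mean; means run from 0.945% in CC005 to 1.92% in CC044, and the libraries of CC023 lie furthest apart as a ratio, at 0.986% and 1.82%.

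The spread inside a strain sets the scale for these differences. The higher library of a strain had a median of 1.15 times the sum of the lower one, and at most 1.84 times, in CC023. The CC030 sample that was sequenced 2 times had 1.80% in one run and 1.55% in the other, and all 13 mRNAs were lower in the second run, at 0.749 to 0.939 of the first; the other CC030 library had 1.12%. The intraclass correlation is the share of the variance of log2 values that lies between strains. It was 0.416 for the sum as a share of TPM and 0.571 for the sum as scaled TPM. Its median over the single mRNAs, also as scaled TPM, was 0.739.

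The mRNAs stood at very different levels, although those of a strand are copied into the same long RNAs. Complex IV mRNAs took a median of 73.9% of the pool of 13, complex I mRNAs 12.7%, complex V mRNAs 11.4% and mt-Cytb 2.17%. Over the strain means, mt-Co1 had a median of 4449 scaled TPM (3010 to 6979) and mt-Nd4l, the least abundant, 33.5 (12.8 to 103). The only mRNA of the light strand, mt-Nd6, had 51.1 (13.8 to 96.1). A median of 208682 estimated reads lay behind mt-Co1 and 212.4 behind mt-Nd4l, so counting error is larger for mt-Nd4l, mt-Nd6 (730 reads) and mt-Nd2 (2126 reads).

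**Figure D2:**
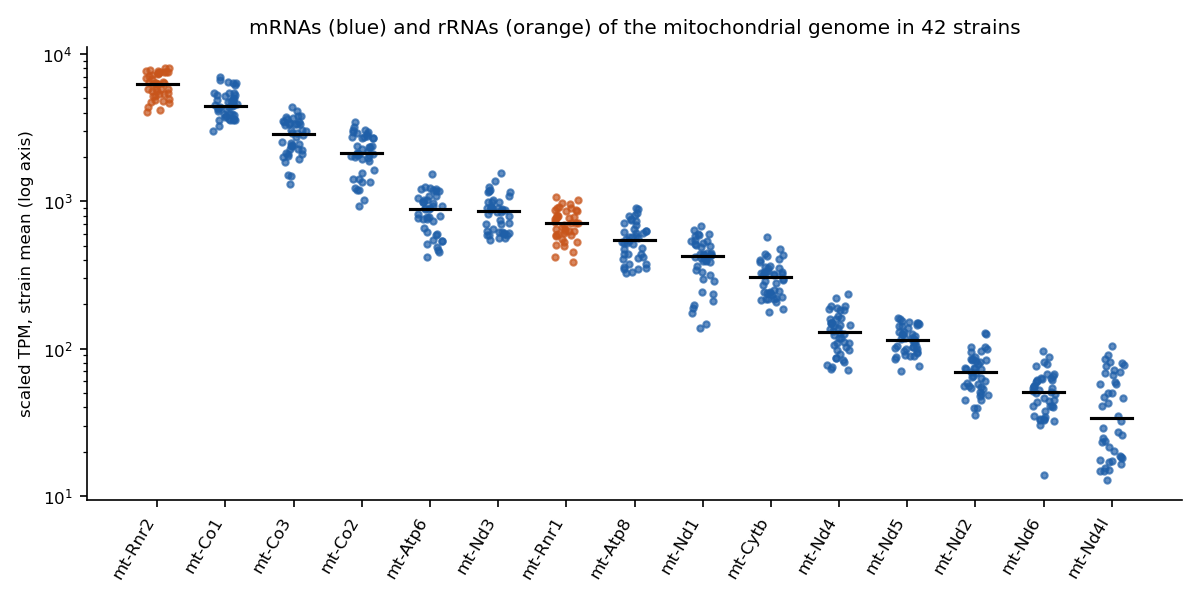
Strain means of the 13 mRNAs (blue) and 2 rRNAs (orange), as scaled TPM on a log axis, ordered by their median (black line). Each point is 1 of 42 strains; mt-Nd4l has the widest range of the mRNAs, 12.8 to 103.

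Of the 13 mRNAs, 12 passed the test for a strain effect (limma's moderated F over 39 strains and 92 libraries, Benjamini-Hochberg adjusted over all genes). This share, 92.3%, stands beside 81.6% of all 15675 genes tested, so a strain effect is common in these cultures. The ranges were wide. The highest strain mean was a median of 3.46 times the lowest for the 13 mRNAs (2.27 to 7.83), against 2.04 for all genes tested. Their median intraclass correlation was 0.739, against 0.472 for all genes and 0.485 for the 4846 genes with a median of 10 or more scaled TPM. Fold ranges are on the log2(scaled TPM + 0.5) scale.

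Of the complex I subunits, 6 of 7 passed. For each mRNA and rRNA, the 2 strains named first had the highest and lowest mean log2 level among those tested. An adjusted p beside 2 strains, here and for the nuclear genes, is that of the F test over all 39 strains. The 2 strains were not tested against each other. mt-Nd1, a membrane subunit near the quinone site, was at 659 and 689 scaled TPM in the CC051 libraries and at 129 and 146 in those of CC055, with a median of 427 (126.4 to 689) over all 95 libraries. The strain means were 674 ± 21.0 and 138 ± 12.1 (SD, n = 2 each). Over all strains tested, mt-Nd1 had an intraclass correlation of 0.824 and passed the strain test (limma adjusted p 4.21e-15). mt-Nd2 was at 121 and 131 in CC045 and at 38.5 and 32.1 in CC019 (adjusted p 2.05e-14). The most extreme was mt-Nd4l, at 100.4 and 106 in CC042 and at 11.4 and 14.3 in CC071, a 7.83-fold range (adjusted p 4.17e-21) and an intraclass correlation of 0.899. Its neighbour mt-Nd4 was also highest in CC042, at 235.2 and 233.02, and lowest in CC023, at 91.2 and 52.1 (adjusted p 3.46e-11). The CC023 libraries differed by more than 1.5 times between themselves here.

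mt-Nd3 was at 1508 and 1580 scaled TPM in CC074 and at 726 and 374 in CC028 (limma adjusted p 3.2e-07). mt-Nd6 was at 87.3 and 105 in CC045, and at 14.7 and 12.9 in CC030, the lowest pair of all strains, with no other strain mean under 30 (adjusted p 0.000185). Both runs of the repeated CC030 sample were low, at 19.7 and 16.8 deposited TPM. mt-Nd5, the longest of the mRNAs, did not pass (adjusted p 0.0745, intraclass correlation 0.174). Its strain means ran from 160 ± 1.97 in CC057 to 70.5 ± 4.33 in CC030 (n = 2 each), and its replicates differed by a median factor of 1.30.

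mt-Cytb, the complex III subunit, was at 590 and 553 scaled TPM in CC042 and at 244 and 111 in CC023 (adjusted p 3.12e-09). All 3 complex IV subunits passed. mt-Co1, the catalytic core, was at 6158 to 7695 in the 4 libraries of CC025 and at 3065 and 2955 in CC028, with the smallest fold range of those that passed, 2.31 (limma adjusted p 2.21e-13). mt-Co2, which takes electrons from cytochrome c, was at 3300 and 3577 in CC051 and at 873 and 996 in CC055 (adjusted p 6.01e-17). mt-Co3 was at 4580 and 4116 in CC074 and at 1185 to 1449 in the 3 libraries of CC075 (adjusted p 1.21e-08).

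Both ATP synthase subunits passed and had the same highest and lowest strains among those tested. mt-Atp6, which forms the proton channel with the c-ring, was at 1498 and 1565 scaled TPM in CC051 and at 476 and 363.6 in CC006 (limma adjusted p 6.88e-16). mt-Atp8, a small subunit read from the same RNA, was at 825 and 944 in CC051 and at 375 and 275 in CC006 (adjusted p 7.86e-08). In the single CC024 library mt-Atp8 was at 904.

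Both rRNAs passed, with smaller ranges. mt-Rnr2, the RNA of the large ribosomal subunit, was at 7587 and 8565 scaled TPM in CC007 and at 4072 and 4036 in CC071 (limma adjusted p 0.000143), a 1.99-fold range. mt-Rnr1, of the small subunit, was at 1100 and 1044 in CC037 and at 379 and 397 in CC055 (adjusted p 5.51e-05). The kit depletes both RNAs, so these are remainders after depletion. In the 20 strains with sample numbers far apart (below) neither passed (limma adjusted p 0.0649 for mt-Rnr1 and 0.114 for mt-Rnr2; 1 of 2 at an unadjusted p under 0.05).

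Each strain was also compared with the mean of the other 38. Over 507 pairs of strain and mRNA, 90 (17.8%) were higher and 88 (17.4%) lower, against 7.73% higher and 7.09% lower over all genes and strains. Calls were spread over many strains, with 26 strains holding a higher and 29 a lower call, and 16 strains holding both. CC051 was the only strain with 7 or more mRNAs called in one direction: 8 were higher, among them mt-Nd1, mt-Co2 and mt-Atp6, and none lower (also 0 at an unadjusted p under 0.05). Without replicate 2 of CC051, 5 were higher. CC037, CC044 and CC059 had 6 higher and none lower; without replicate 3 of CC059 the count there was 3. Of the strains with no mRNA higher, CC004, CC006 and CC028 had the most lower, 5 each, and CC023 and CC065 had 4 each. In CC005, CC019 and CC040, the lowest in the sum as a share of TPM, no mRNA was higher, and 2, 2 and 3 were lower. Without replicate 2 of CC019 the count there was 1, and without replicate 1 of CC040 it was 1. On the deposited TPM, without the scaling factors, 70 calls were higher and 78 lower, 136 of the 178 calls were shared, and no estimate changed sign, while the median of all genes moved by -0.24 (CC037) to 0.21 (CC023) on the log2 scale. Scaling over nuclear protein-coding genes shared 164 of the 178, again with no change of sign.

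In the 16 strains with calls both ways, some mRNAs were high while others were low. CC025, with 4 libraries, had 4 mRNAs higher, mt-Nd1, mt-Co1, mt-Nd4l and mt-Nd4, and 5 lower, mt-Co2, mt-Atp8, mt-Atp6, mt-Nd3 and mt-Nd6. CC074 had 5 higher and 4 lower. When each mRNA was tested relative to the sum of the 13, all 13 passed, mt-Nd5 included (limma adjusted p 0.0108), against 89.8% of all genes under that scaling. mt-Co2 had the highest intraclass correlation of this ratio, 0.958, followed by mt-Atp6 at 0.948 and mt-Nd4l at 0.944.

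In the order of strains, the share of several mRNAs in the pool of 13 fell into separate levels. For mt-Co2, the 11 lowest strain means ran from 8.63% (CC055) to 11.7% (CC042) of the pool, and the next, CC045, stood at 15.5%, with the other strains up to 23.4% (CC075). This step of 1.33-fold was the largest between neighbours in the order; the next largest was 1.06-fold. The largest step in mt-Atp6 separated the same 11 strains: 3.63% (CC057) to 5.09% (CC042), then 6.40% (CC028) to 8.95% (CC075). It did so in mt-Atp8 too, with 2.71% to 3.23% below and 3.90% to 5.93% above. The 11 are CC002, CC006, CC025, CC030, CC035, CC039, CC042, CC053, CC055, CC057 and CC074.

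For mt-Nd1 the largest step separated 6 of those 11 strains, CC002, CC006, CC039, CC042, CC055 and CC074, at 1.27% to 1.73% of the pool, from CC019 at 2.14%. It was only a little larger than the next step, 1.24-fold against 1.18-fold. For mt-Nd4l it separated 21 strains at 0.108% (CC071) to 0.189% (CC024) from 21 others at 0.325% (CC016) to 0.848% (CC042), a step of 1.72-fold. None of the 11 strains low in mt-Co2 is among the 21 low in mt-Nd4l. These steps were noticed in the values and carry no test.

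**Figure D3:**
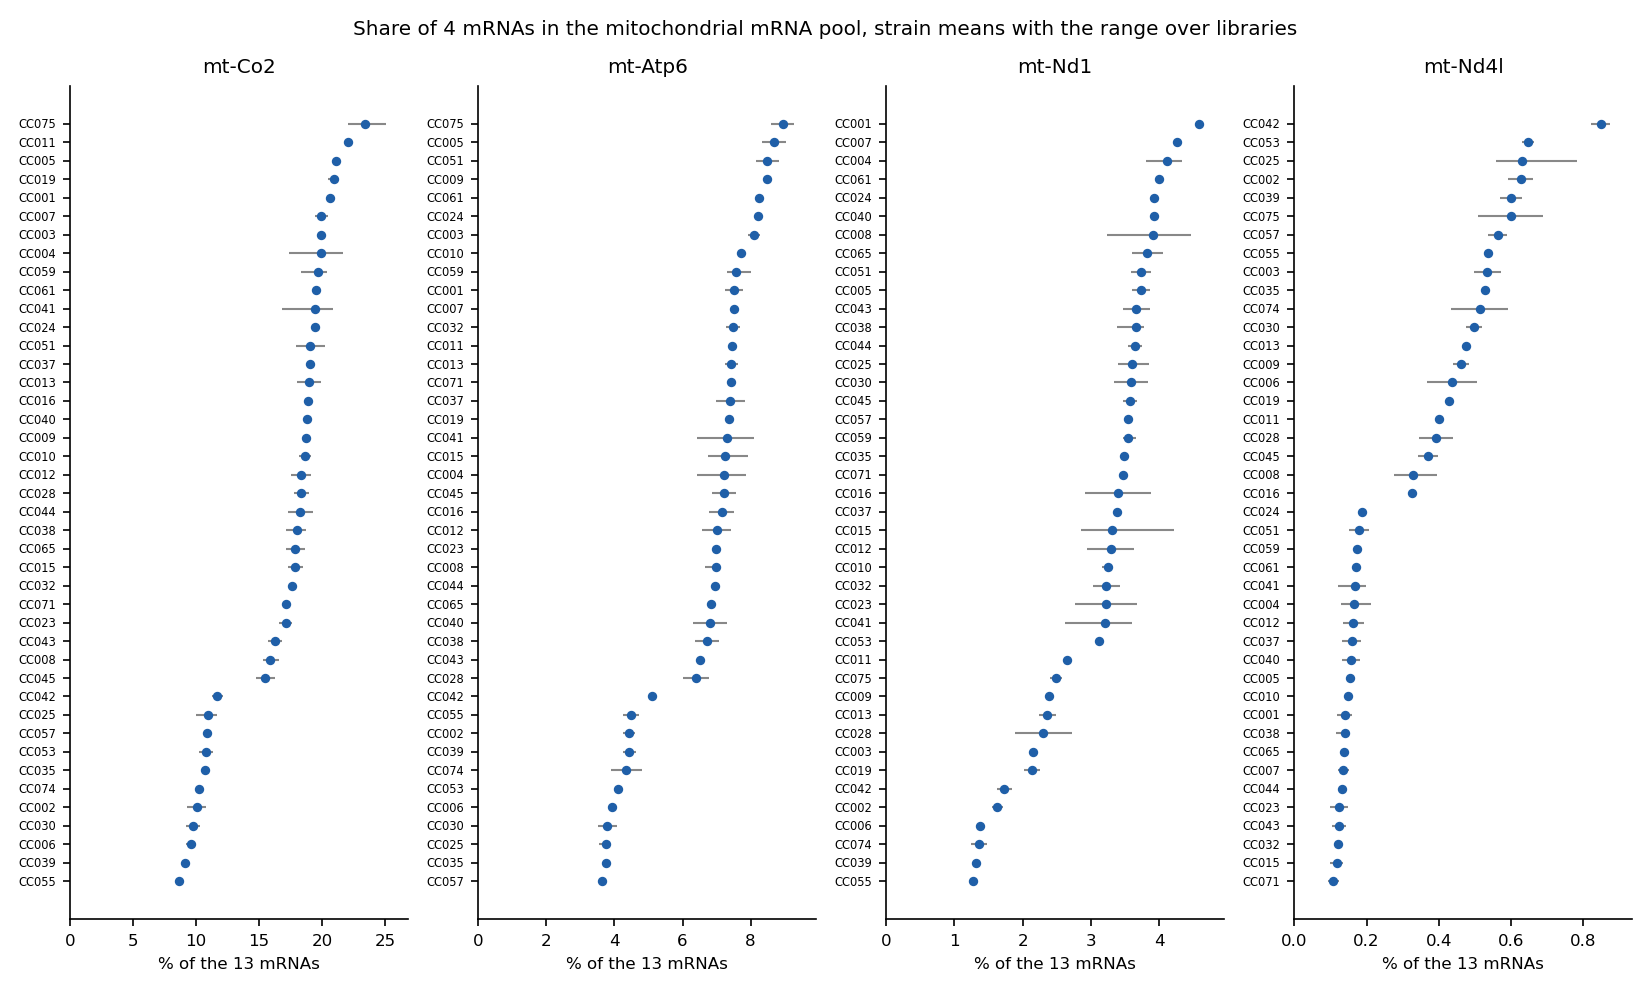
Share of mt-Co2, mt-Atp6, mt-Nd1 and mt-Nd4l in the summed TPM of the 13 mRNAs (percent, x axis) in 42 strains, each panel ordered by its own strain means (blue points), with grey lines over the range of the libraries of a strain. The 11 lowest strains of mt-Co2 and of mt-Atp6 are the same, at or below 11.7% and 5.09%, and 21 strains lie at or below 0.189% in mt-Nd4l.

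For 3 of the nuclear copies, Gm13341, Gm10222 and Gm13339, the strains at high level were those below the largest step of a share above. The strains high in Gm13340 and Gm4076 came next in the order of mt-Nd1, at 2.14% (CC019) to 2.65% (CC011) of the pool. They lay between the 6 lowest strains of mt-Nd1 and CC053, at 3.13%. The reference annotation holds 11 transcripts outside the mitochondrial genome with 95% or more identity to a member over at least 100 bases, and 5 of them have values. The other 6, on chromosome 1, were not analysed here. They had 99.7% to 100% identity to mt-Atp6, mt-Co1, mt-Co2, mt-Co3, mt-Nd3 and mt-Nd4. Of the 5, Gm10222 alone had a median above 1 TPM, and the other 4 are named after their values were seen. Gm13341, a copy of mt-Co2, had strain means of 292 (CC055) to 1092 (CC057) scaled TPM in 11 strains and of 1.68 or less in the other 31. The highest single library of those 31 strains was at 5.46, in CC038. Those 11 strains are the 11 that were lowest in the share of mt-Co2, mt-Atp6 and mt-Atp8. In CC030, for example, Gm13341 was at 903 and 608 beside mt-Co2 at 1390 and 978.

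Gm10222, the copy identical to mt-Nd4l, had strain means of 20.2 (CC071) to 51.4 (CC051) scaled TPM in 21 strains and of 0.177 or less in the other 21. Those with Gm10222 are the 21 strains lowest in the share of mt-Nd4l. In their 50 libraries Gm10222 stood at 1.22 to 1.60 times mt-Nd4l, with a median of 1.60, so the values of this pair moved almost in step. Gm13340, a copy of mt-Co1, had strain means of 61.4 (CC028) to 97.9 (CC003) in 7 strains and of 0.919 or less in the others. The 7 are CC003, CC009, CC011, CC013, CC019, CC028 and CC075. Gm13340 was 0.0196 to 0.0225 times mt-Co1 in their 14 libraries. Gm4076, a processed pseudogene on chromosome 13 with 95.2% identity to mt-Nd5, had strain means of 0.799 to 2.07 in the same 7 strains. Gm13339, a copy of mt-Nd2 with 96.7% identity over 510 bases, had strain means of 2.13 to 3.73 in 6 strains. They were the 6 lowest in the share of mt-Nd1.

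No strain was on the high side for more than 1 of Gm13341, Gm13340 and Gm10222: 39 strains were high for exactly 1, and CC008, CC016 and CC045 for none. CC045 was the strain highest in mt-Nd6 and in mt-Nd2 among those tested. The copies had intraclass correlations of 0.985 (Gm13341), 0.990 (Gm10222) and 0.994 (Gm13340).

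**Figure D4:**
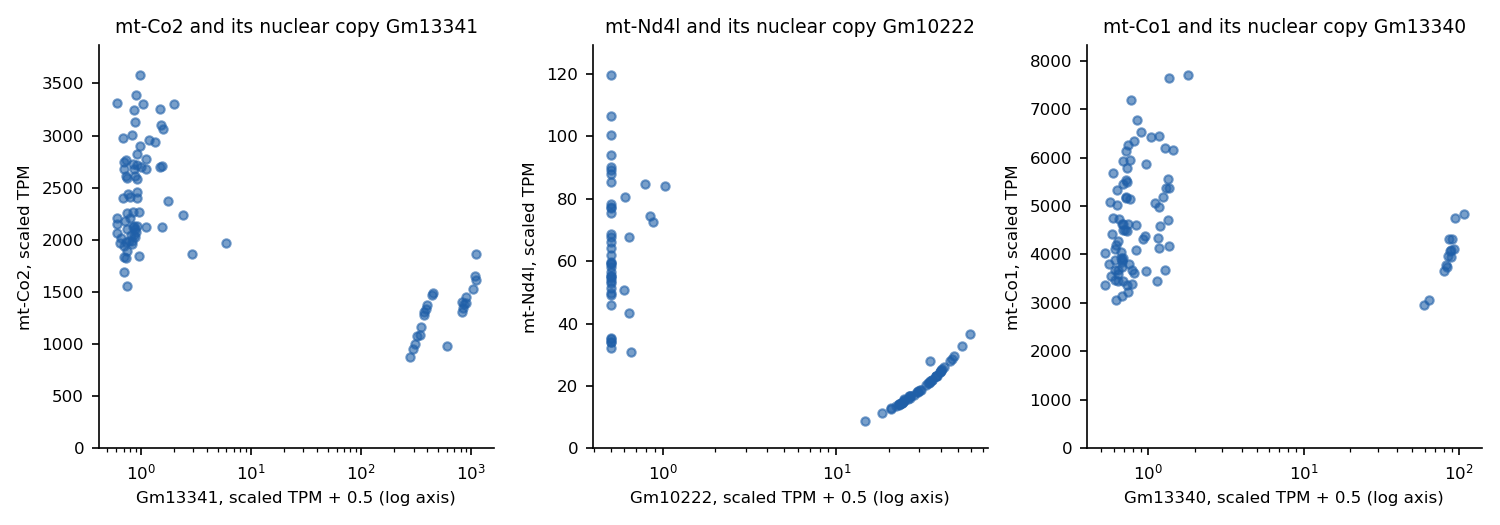
Scaled TPM of mt-Co2, mt-Nd4l and mt-Co1 (y axes) against that of the nuclear copies Gm13341, Gm10222 and Gm13340 (+ 0.5, log x axes). Each point is 1 of 95 libraries. Each copy is either near 0 or far above it, and mt-Nd4l rises with Gm10222 along a narrow line in the libraries where Gm10222 is above 10.

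The calls of single strains were made on these same values, and a member and its copy share reads, so their values are not independent. The overlap of calls therefore describes the same pattern and is no separate test of it. Over the 39 strains, Gm13341 was called higher in 10 and lower in 29, and Gm10222 higher in 20 and lower in 19. mt-Atp6 was called lower in 10 strains, and Gm13341 was called higher in the same 10 (100% of each). The 9 strains in which mt-Co2 was called lower were all among those 10 (100% and 90%), and so were the 6 in which mt-Atp8 was (100% and 60%). All 14 strains with mt-Nd4l called lower were among the 20 with Gm10222 called higher (100% and 70.0%), and all 13 with it called higher were among the 19 with Gm10222 called lower (100% and 68.4%). For mt-Co1 and Gm13340 there was almost no such match: 1 of the 9 strains in which mt-Co1 was called lower, CC028, was among the 6 in which Gm13340 was called higher. For mt-Nd2 and Gm13339, 4 of the 8 strains with mt-Nd2 called lower were among the 6 with Gm13339 called higher.

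Adding the copy to its member narrowed the differences but did not remove them. Summed with Gm10222, mt-Nd4l ranged 3.11-fold between strains instead of 7.83-fold, with 4 strains higher and 3 lower instead of 13 and 14, and its intraclass correlation was 0.598 instead of 0.899. Summed with Gm13341, mt-Co2 ranged 2.81-fold instead of 3.68-fold, with 8 strains higher and 4 lower instead of 12 and 9. Both sums still passed the strain test (limma adjusted p 3.43e-07 and 1.35e-10). mt-Co1 hardly moved (2.26-fold instead of 2.31-fold). For mt-Atp6, which was low in the same strains as mt-Co2, no near-identical copy has values here. Whether differences of mitochondrial sequence between strains change how reads are assigned was not tested.

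The tRNAs gave little information. Of 22, 7 were listed at 0 in every library, and all 7 (mt-Td, mt-Tf, mt-Ti, mt-Tk, mt-Tl2, mt-Tr and mt-Ts2) are heavy-strand genes. All 8 light-strand tRNAs had values above 0 in at least 3 libraries, with a median of 50 of 95 libraries, against a median of 1 for the 14 heavy-strand tRNAs. The split was not clean: the heavy-strand mt-Tm was above 0 in 61 libraries and the light-strand mt-Ta in 3. The kit keeps RNAs above 200 nt, and these genes are 59 to 75 nt long, so a mature tRNA is shorter than what the kit retains.

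Each tRNA value rested on few reads. Of the 481 values above 0, 475 (98.8%) were whole multiples, within 0.02, of the smallest tRNA value of their column, and that step, a median of 31.0 TPM, was within 10% of the estimated worth of 1 read on 1 nt of effective length in 86 of 96 columns. By that estimate the 22 tRNAs held a median of 14 reads per library (up to 55). mt-Ts1, the serine tRNA printed above, was the only one above 0 in all 95 libraries, with a median of 241 scaled TPM (23.0 to 662), which is about 8 reads; it was listed at 0 in 1 run of the CC030 sample. mt-Tm and mt-Te had medians of 31.0 and 30.8, about 1 read each.

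**Figure D5:**
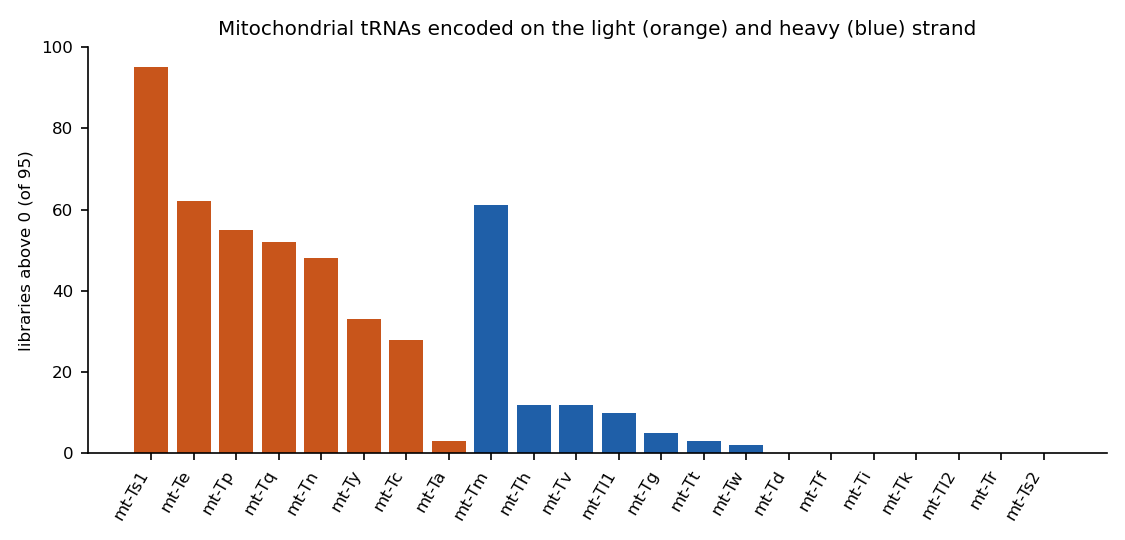
Number of libraries, of 95, in which each mitochondrial tRNA was above 0, for light-strand tRNAs (orange) and heavy-strand tRNAs (blue). The bar of mt-Ts1 reaches 95, and 7 heavy-strand tRNAs have no bar.

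Of the 15 tRNAs tested, 4 passed the strain test (limma), 26.7% against 81.6% of all genes. mt-Ta was above 0 in 3 libraries only, at 34.5 and 32.4 scaled TPM in CC003 and at 32.4 in 1 of 4 CC025 libraries, each about 1 read. mt-Tg was above 0 in 5 libraries, both of CC028 (22.9 and 39.4) among them, and its call was lost without replicate 2 of CC028 (adjusted p 0.0814). mt-Tc was above 0 in 28 libraries, and its mean log2 level was highest in CC053, at 60.3 and 27.5; in CC016 it was at 0 and 109. The mean log2 level of mt-Tp was highest in CC019, at 149 and 64.96, while CC016 had 235.4 and 36.3; its call (adjusted p 0.0351) was lost in 3 of 92 fits that each left out 1 library, without replicate 1 of CC016, CC019 or CC043 (highest adjusted p 0.0512). These 4 calls rest on a few reads.

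The titles number the samples, and what the numbers stand for is not stated. In the 19 strains with numbers within 5 of each other, mt-Nd3 had an intraclass correlation of 0.875, and in the 20 strains with numbers 20 or more apart it had 0.266, where it lost its call (limma adjusted p 0.144). Of each strain with distant numbers, only the libraries with the lowest and the highest number entered. That fit thus held fewer libraries as well as fewer strains than the main one. The part of these numbers in the strain differences was not tested. mt-Co2 (0.913 and 0.834), mt-Nd4l (0.948 and 0.831) and mt-Atp6 (0.869 and 0.824) kept high values in both sets. In the strains with distant numbers 11 of the 13 mRNAs passed, against 41.3% of all genes. In those with close numbers 12 passed, against 84.6% of all genes.

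Nuclear genes of the same pathway had narrower ranges, with a median of 1.97-fold for transcription and 1.49-fold for replication. Of 42 tested genes for mitochondrial transcription, replication, RNA processing and its regulation, 36 passed the strain test (85.7%, against 81.6% of all genes); among them were 9 of 10 for transcription, 4 of 8 for replication and 19 of 19 for RNA processing and stability. Polrmt, the polymerase, was at 4.38 ± 0.155 scaled TPM in CC028 and 2.06 ± 0.541 in CC009 (n = 2 each, limma adjusted p 0.000318). Tfam, which packs mitochondrial DNA and starts transcription, was at 13.2 ± 0.603 in CC044 and at 7.92 ± 0.0259 in CC055 (n = 2 each, limma adjusted p 0.0175). Ppargc1a, a regulator of mitochondrial biogenesis, had a median of 0.106 and was not tested.

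The nuclear genes of this group with the largest ranges were Mterf1b, Fastkd5, Tfb1m, Tfb2m, Mterf1a and Top1mt. Mterf1b, of a family of termination factors, was at 5.03 ± 0.288 scaled TPM in CC037 and 0.759 ± 0.00326 in CC071 (n = 2 each, limma adjusted p 5.55e-19). It has a close relative, Mterf1a (2.80 in CC042 and 0.934 in CC008), so the division of reads between them is uncertain. Fastkd5, which is needed to process mRNAs that no tRNA flanks, was at 4.88 ± 0.0631 in CC043 and 1.01 ± 0.217 in CC012 (n = 2 each, adjusted p 3.81e-06). Tfb2m, which melts the promoter with Polrmt, ranged 2.39-fold and Tfb1m, an rRNA methyltransferase, 2.43-fold. Top1mt, the mitochondrial topoisomerase, ranged 2.14-fold, with CC030 lowest (3.24 ± 0.548, n = 2).

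Of 70 tested nuclear subunits of complexes I, III, IV and V, 57 passed (81.4%, close to the 81.6% of all genes), and their median intraclass correlation was 0.412, against 0.739 for the mitochondrial mRNAs. The largest ranges were those of Atp5g2, Atp5g1, Cox7c and Uqcrq. Atp5g1, 1 of the genes for the c-ring subunit, was at 161 ± 14.3 scaled TPM in CC039 (n = 2) and 29.5 ± 4.03 in CC038 (n = 4), and Cox7c, of complex IV, at 247 ± 6.18 in CC039 and 56.6 ± 19.5 in CC030 (n = 2 each). Uqcrq, of complex III, was at 96.6 ± 6.97 in CC037 and 36.6 ± 2.03 in CC030. Atp5g2 was at 137 ± 12.6 (n = 4) in CC025 and near 0 in CC023, the lowest strain, with a median of only 1.14 over all libraries. Genes of this kind can also have nuclear pseudogenes. Copies of these genes were not searched for, so how far that affects their values was not tested.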

How the data were processed

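Total RNA of 96 samples was sequenced after rRNA depletion, from 200 ng of RNA, per the labels' protocols. The authors deposited TPM per transcript: the file name speaks of counts, but every column sums to 1000000. Bowtie (version not stated) and mm9 are named in the submitters' processing notes; how reads were shared between transcripts is not stated. Of 94545 transcripts, 91225 matched GENCODE M21 and were summed into 37945 genes; 3320 did not match, and 1 line names no transcript. The members and gene lists were chosen with earlier results of these data known.

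TPM were divided by a trimmed mean of log ratios per library (over genes averaging 1 TPM or more, trimming 30% of ratios and 5% of levels; factors 0.773 to 1.27). Genes with at least 0.5 TPM in 2 libraries were tested on log2(scaled TPM + 0.5) with limma 3.58.1 in R 4.3.3 (trend on level, residual df 53, Benjamini-Hochberg adjusted p below 0.05), in the 39 strains with 2 or more libraries. Contrasts of single strains were adjusted over all strains and genes together. The fit was tested on simulated data. Depth was estimated from low values, taking effective length as length less 70 nt; a median of 76.0% came within 0.1 of whole reads, where 20% would by chance. No counts were rebuilt. Alternatives were other scalings, pseudocounts and filters, copies summed with members, single CC030 runs, depth as covariate, strains split by title number, and leaving out each library. Copies were found with BLAST+ 2.17.0. Named by rule were all mRNAs and rRNAs, the tRNAs past the test and the 3 with the highest median, the 3 highest and lowest strains of the sum, strains with 7 or more of the 13 mRNAs called one way, the extreme strains of each mRNA, and nuclear genes by range (6 of expression, 4 subunits) or smallest p (2 subunits), with Polrmt, Tfam and Ppargc1a.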

Additional observations from a re-analysis of the deposited data

Results flagged for a closer look

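In CC025, which has 4 libraries, mt-Rnr1 was at 698 scaled TPM in replicate 1 and at 963 to 987 in the others, a gap of 0.919 of the range of the group. It was the only gap flagged among 96 groups of 4 libraries, made of the summed mRNAs, the 13 mRNAs and the 2 rRNAs in 6 strains. Chance alone gives a gap large enough to be flagged in about 1 in 20 groups. The groups share libraries and are not independent: mt-Rnr2 was also lowest in this library, at 6329 against 8059 to 8464. mt-Rnr1 is a remainder after rRNA depletion.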

How the results depend on the processing

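The counts of mRNAs past the strain test and relative to the pool, and the total calls higher and lower over all strains, stayed within 1.5 times the reported counts under every alternative run for them. Counts within a strain or gene moved more. Leaving out 1 library gave 5 to 7 mRNAs higher in CC051, 4 in CC044 and 3 to 5 in CC059, and 2 to 3 lower in CC005, 1 to 2 in CC019 and 1 to 2 in CC040. With copies summed, mt-Nd4l was higher in 4 and lower in 3 strains, mt-Co2 was lower in 4, and 1 estimate among the 178 calls changed sign, without a call. Over 92 fits without 1 library each, 12 to 13 mRNAs, 2 rRNAs and 3 to 7 tRNAs passed (7 without replicate 1 of CC055, where the lone library is assumed to vary like other strains), 13 passed relative to the pool, and 86 to 102 calls were higher and 85 to 96 lower. In the strains with distant title numbers, with only the lowest- and highest-numbered library of each, 0 rRNAs passed (limma, 1 of 2 at an unadjusted p under 0.05). Passing there were 5 of 10 genes of mitochondrial transcription, 1 of 8 of replication, 5 of 19 of RNA processing, 1 of 5 regulators, and 16 of 36, 4 of 9, 3 of 11 and 5 of 14 nuclear subunits of complexes I, III, IV and V, against 41.3% of all genes; 20 of the 39 strains were tested there. The ratio of the highest to the lowest strain in summed mRNAs was 1.94 to 2.30 without a library of either strain, 1.77 as scaled TPM and 1.62 against protein-coding TPM. mt-Nd5 passed in 9 of the 92 fits (lowest adjusted p 0.0188, without replicate 1 of CC023). Estimated depth limits mt-Nd4l and, at a few reads, every tRNA.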
